A study of Homo sapiens with 16 samples.

Results

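The NF-κB pathway and its feedback genes were followed as 10 genes of the 34423 gene names on the array, taken by symbol: the subunits NFKB1, NFKB2 and RELB, the IκB family members NFKBIA and BCL3, the deubiquitinating feedback enzymes TNFAIP3 and CYLD, the adaptor TRAF3, the ubiquitin ligase BIRC3 and the kinase MAP3K14. Gene expression was measured on 16 one-colour microarrays in RPMI-8226 and MM.1S cells, established human lines of multiple myeloma (MM), a cancer of plasma cells. Each line was treated for 6 days with the vehicle DMSO, with 1 µM GSK126, which inhibits the histone methyltransferase EZH2, with 1 µM UNC0638, which inhibits the histone methyltransferase G9a, or with both inhibitors at 1 µM each. Each of the 8 groups had 2 arrays (n = 2), and p-values measure only the spread between these samples, which the study describes as biological replications. Both lines were grown without the cells of the bone marrow, and a change in the cells that make up a culture and a change in RNA per cell cannot be told apart.

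NF-κB is a family of dimeric transcription factors that stay inactive in the cytoplasm until a receptor signal frees them. In the canonical route, IκB kinase removes the inhibitor NFKBIA (IκBα) and releases dimers built on NFKB1 and RELA. In the non-canonical route, the kinase MAP3K14 (NIK) drives processing of the NFKB2 precursor, and its product enters the nucleus with RELB. TRAF3 and BIRC3 belong to the complex that keeps MAP3K14 protein low. NFKBIA, TNFAIP3 (A20), BIRC3 and NFKB2 are themselves well-known NF-κB target genes, so that the pathway feeds back on itself, and recurrent mutations of TRAF3, CYLD, BIRC3 and other members are a known feature of MM.

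The RefSeq promoter table for GRCh38.p14 held 14 windows, each from 250 bases before to 50 bases after a transcription start, for 9 of the 10 genes. The κB consensus, a motif of 10 bases, was searched on both strands, with overlapping matches counted separately, and was found in 10 of the 14 windows and in 8 of the 9 genes. It was found in 5.91% of all 35116 windows and in at least 1 window of 7.09% of 27305 genes. Windows of 6 genes are shown because their transcripts carried the changes described below, with matched bases in capitals and every sequence written 5′ to 3′ on the strand of the gene.
BIRC3, chr11:102317234-102317533, plus strand: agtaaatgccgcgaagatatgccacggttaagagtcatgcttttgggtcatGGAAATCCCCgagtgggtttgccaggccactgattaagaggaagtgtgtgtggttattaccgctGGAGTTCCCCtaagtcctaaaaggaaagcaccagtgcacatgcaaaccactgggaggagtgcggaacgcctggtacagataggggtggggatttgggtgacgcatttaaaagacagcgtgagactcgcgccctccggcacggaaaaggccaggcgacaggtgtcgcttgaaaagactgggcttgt
NFKBIA, chr14:35404700-35404999, minus strand: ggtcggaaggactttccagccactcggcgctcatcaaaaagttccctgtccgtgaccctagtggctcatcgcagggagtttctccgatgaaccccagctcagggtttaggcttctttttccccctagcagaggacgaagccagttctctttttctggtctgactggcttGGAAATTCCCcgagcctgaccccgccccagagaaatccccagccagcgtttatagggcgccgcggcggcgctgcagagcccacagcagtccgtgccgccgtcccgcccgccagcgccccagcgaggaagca
TNFAIP3, chr6:137867009-137867308, plus strand: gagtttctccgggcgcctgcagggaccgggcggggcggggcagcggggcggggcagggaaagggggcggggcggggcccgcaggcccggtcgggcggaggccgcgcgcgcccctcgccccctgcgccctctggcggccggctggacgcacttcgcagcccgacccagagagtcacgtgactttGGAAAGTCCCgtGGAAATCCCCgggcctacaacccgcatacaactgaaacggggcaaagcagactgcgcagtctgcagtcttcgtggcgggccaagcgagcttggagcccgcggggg
BCL3, chr19:44748458-44748757, plus strand: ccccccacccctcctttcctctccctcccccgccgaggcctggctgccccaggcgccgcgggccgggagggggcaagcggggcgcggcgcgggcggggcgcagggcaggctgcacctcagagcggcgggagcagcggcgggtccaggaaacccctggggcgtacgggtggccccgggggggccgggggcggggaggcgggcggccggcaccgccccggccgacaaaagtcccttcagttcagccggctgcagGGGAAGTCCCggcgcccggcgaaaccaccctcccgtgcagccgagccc
NFKB2, chr10:102395455-102395754, plus strand: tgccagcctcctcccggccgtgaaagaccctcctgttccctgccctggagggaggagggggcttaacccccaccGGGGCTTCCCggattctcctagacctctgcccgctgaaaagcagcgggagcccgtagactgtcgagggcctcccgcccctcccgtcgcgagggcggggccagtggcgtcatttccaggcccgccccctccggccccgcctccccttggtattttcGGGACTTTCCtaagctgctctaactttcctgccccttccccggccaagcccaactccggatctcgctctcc
MAP3K14, chr17:45316971-45317270, minus strand: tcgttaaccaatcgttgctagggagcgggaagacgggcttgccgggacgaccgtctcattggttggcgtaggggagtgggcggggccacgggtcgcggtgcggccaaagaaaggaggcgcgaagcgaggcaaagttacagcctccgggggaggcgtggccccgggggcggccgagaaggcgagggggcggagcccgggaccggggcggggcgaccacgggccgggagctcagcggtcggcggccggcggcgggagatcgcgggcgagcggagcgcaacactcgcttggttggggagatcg

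Counted in bases from the transcription start, matches began at −199 and −135 in BIRC3, at −81 in NFKBIA, at −67 and −55 in TNFAIP3 and at 3 in BCL3. At the NFKB2 start shown they began at −176 and −21, and another NFKB2 start had 3, of which 2 overlapped. NFKB1, CYLD and TRAF3 also held matches, whereas the MAP3K14 window held none. A match is a description of the letters and no measurement of binding.

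**Figure D1:**
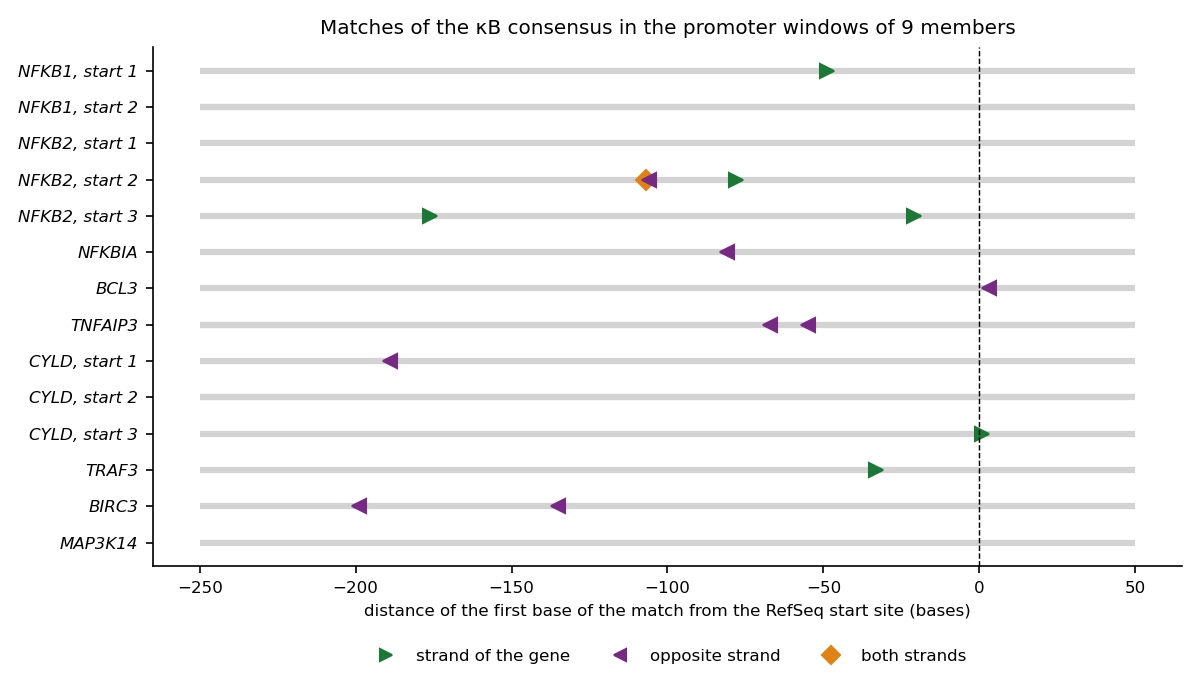
Positions of κB consensus matches in the promoter windows of 9 genes, with distance from the transcription start in bases on the x axis and 1 row per window. Triangles point along the strand of the match. Matches begin between −199 and 3, and the MAP3K14 row has none.

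Levels are given as log2 intensity relative to the 75th percentile of the array, so that a level of 0 equals this percentile. The percentile lay at an intensity of 253.6 to 347.4 on the RPMI-8226 arrays and 429.6 to 475.8 on the MM.1S arrays, with 46.5% to 49.7% and 49.9% to 52.8% of probes well above background. Replicate arrays correlated at r of 0.985 to 0.995 over probes. All 8 plasma cell markers tested, among them SDC1, XBP1 and IRF4, were well above background on each array, and the B cell markers PAX5 and CD22 on none. The summed level of 4 T cell markers (log2 of the summed linear levels) went from between −0.78 and −0.47 with DMSO to between 3.57 and 3.78 with the combination in RPMI-8226, where CD3D and CD3G were measured on each array. The sum there of the B cell markers, of which MS4A1 was measured on 5 of 8 arrays, went from between −4.40 and −4.02 to between −0.70 and 0.29, the 3 summed myeloid markers from between −0.85 and −0.06 to between 2.15 and 2.39, and the summed plasma cell markers went from between 8.01 and 8.24 to between 7.34 and 7.72. The corresponding MM.1S sums with DMSO and with the combination were −1.52 to −1.34 and −1.02 to −0.95 for T cell, −4.69 to −4.67 and −3.04 to −2.69 for B cell, −2.40 to −2.38 and −0.63 to −0.31 for myeloid, and 9.07 to 9.09 and 8.50 to 8.51 for plasma cell markers. Their part in the results below was not tested.

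The cell lines were first compared without inhibitor. Of the 10 genes, 8 were lower in RPMI-8226 than in MM.1S (limma, adjusted p under 0.05), against 28.8% of 26928 probes lower and 28.9% higher, or 57.7% in either direction. The arrays of each line lay on 1 slide scanned at 1 time, so line and slide cannot be told apart. TNFAIP3, the ubiquitin-editing enzyme that ends NF-κB signalling, stood furthest apart of the genes measured in both lines. Its levels were −3.06 and −3.04 in RPMI-8226 and 3.36 and 3.33 in MM.1S, so that the lines did not overlap. The difference of −6.40 ± 0.16 (log2, SE, adjusted p = 3.63e-10) corresponded to an 84.3-fold lower level in RPMI-8226. With normexp background correction it was −5.16.

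TRAF3, the adaptor that recruits BIRC3 to MAP3K14, was not well above background on any of the 8 RPMI-8226 arrays, at −6.67 to −6.01. In MM.1S it was measured on each array at −0.33 to −0.14. The DMSO level was at least 15.5-fold lower in RPMI-8226, a bound set against the dimmest probes that were well above background (adjusted p = 6.17e-11). This bound holds for the main processing. Under the alternatives the fitted difference ran from −6.45 to −2.54 (log2). The call was lost where probes had to be above background on all arrays. BIRC3 was at −0.71 and −0.62 in RPMI-8226 and 3.22 and 3.35 in MM.1S, a difference of −3.95 ± 0.21 (adjusted p = 7.69e-08). The remaining genes called lower were RELB at −2.16 ± 0.19, CYLD at −2.00 ± 0.22, NFKB2 at −1.97 ± 0.29, BCL3 at −0.78 ± 0.18 and NFKB1 at −0.68 ± 0.14. In contrast, NFKBIA differed by 0.10 (95% confidence interval −0.26 to 0.46) and MAP3K14 by −0.14 (−0.40 to 0.12), and neither passed the test.

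The split between the lines was not seen across the whole list. Over all 8 arrays a line, levels of NFKB1, NFKB2, RELB, TNFAIP3, CYLD, TRAF3 and BIRC3 did not overlap between RPMI-8226 and MM.1S, with or without inhibitors. How many of all probes were free of overlap in this way was not counted. NFKBIA ranged from 2.66 to 3.54 (median 2.87) in RPMI-8226 and from 2.63 to 3.57 (median 3.08) in MM.1S, and MAP3K14 from 1.74 to 2.004 (median 1.83) and from 1.49 to 2.10 (median 1.97). BCL3 ranged from 1.43 to 3.51 in RPMI-8226 and from 2.93 to 3.37 in MM.1S.

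**Figure D2:**
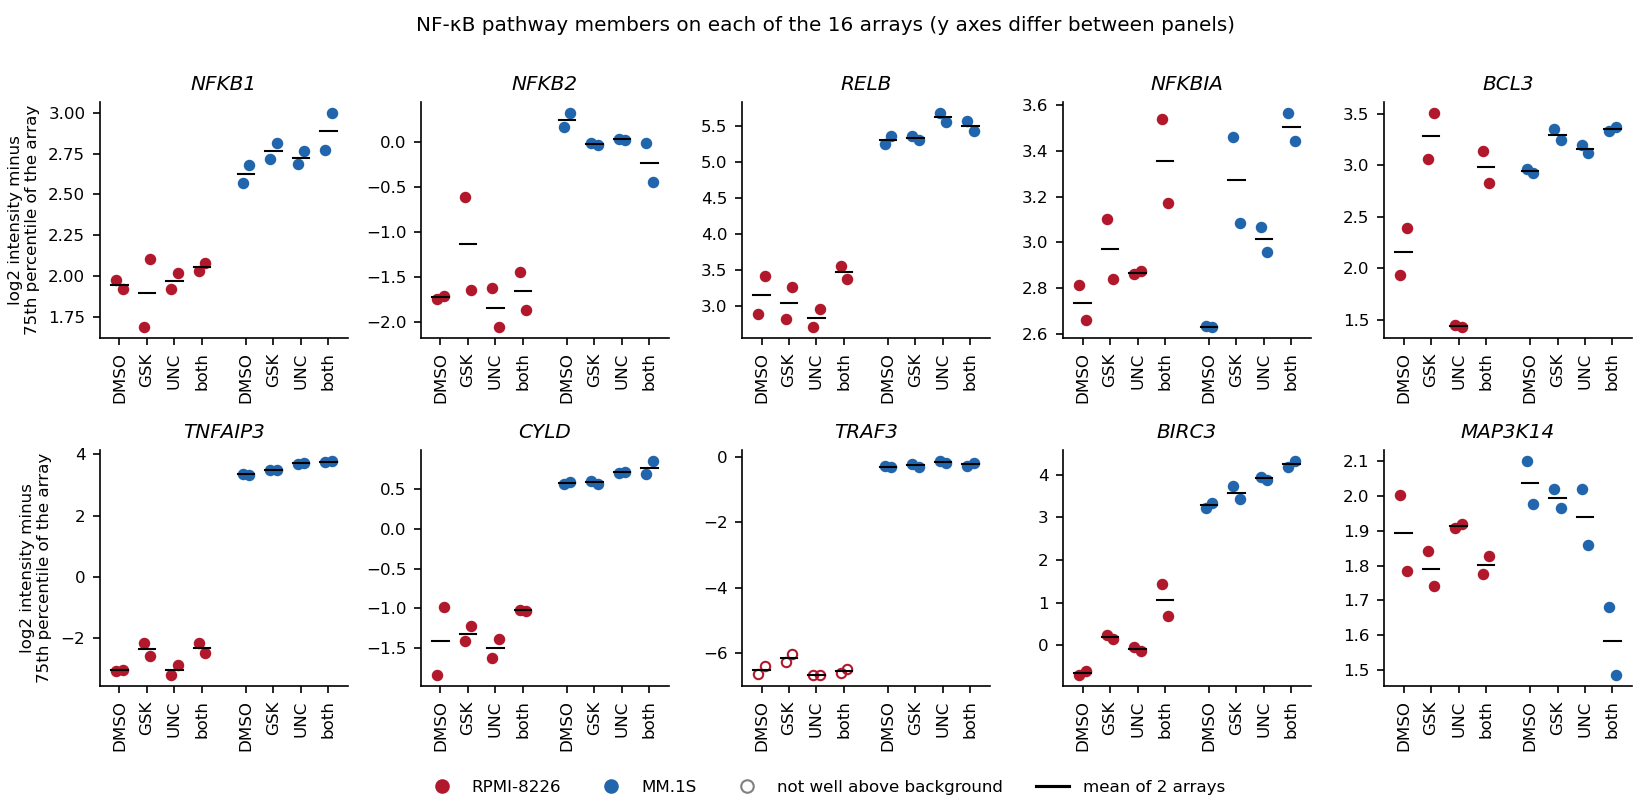
Level of each of the 10 genes on each array, as log2 intensity relative to the 75th percentile of the array, by treatment and cell line, with 1 point per array. TNFAIP3 lies at −3.22 to −2.17 in RPMI-8226 and 3.33 to 3.78 in MM.1S, TRAF3 is not well above background in RPMI-8226, and BIRC3 rises with the combination in both lines.

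The question for each inhibitor was which of these genes it moved against DMSO, alone and in combination. The 3 comparisons in a line share their DMSO arrays. BIRC3, an antiapoptotic ubiquitin ligase, rose with the combination in both lines, and NFKBIA, BCL3 and TNFAIP3 rose with it in MM.1S, where MAP3K14 and NFKB2 fell. In RPMI-8226, 1 of the 9 genes measured was called with the combination (12.6% of 23196 probes called), 0 with GSK126 (0.599%) and 0 with UNC0638 (0.638%) by limma, with 3 and 1 genes at an unadjusted p under 0.05 for the single agents. In MM.1S, 6 of 10 were called with the combination (53.6% of 25100 probes called, 22.2% higher and 31.5% lower), 2 with UNC0638 (29.5%) and 1 with GSK126 (7.48%). These shares rest on the arrays too, and leaving out 1 array gave 0 to 70 called probes (139 with each array in) for GSK126 and 11 to 99 (148) for UNC0638 in RPMI-8226, and 236 to 1181 (1877) for GSK126 in MM.1S. The 6 of 10 with the combination in MM.1S lay close to the share of all probes called. When arrays were scaled to probes detected on each array, the percentages for this combination became 29.4% higher and 21.5% lower, while no gene called here changed sign under any scaling.

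The median log2 difference with the combination was 0.39 over the 9 genes in RPMI-8226 and 0.23 over the 10 genes in MM.1S, where the medians over probes were −0.14 and −0.12. That scaling moved the medians over probes to −0.00 and 0.07. It adds the same amount to every probe of an array, so the medians over the genes rose with them. CYLD with the combination in MM.1S, for example, went from 0.19 to 0.37. With the replicate number as a block in RPMI-8226, where it was taken to pair the arrays, 3 of the 9 genes were called with the combination. These were NFKBIA and BCL3 besides BIRC3. Over all 23196 probes the block raised the calls from 2912 to 4906.

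**Figure D3:**
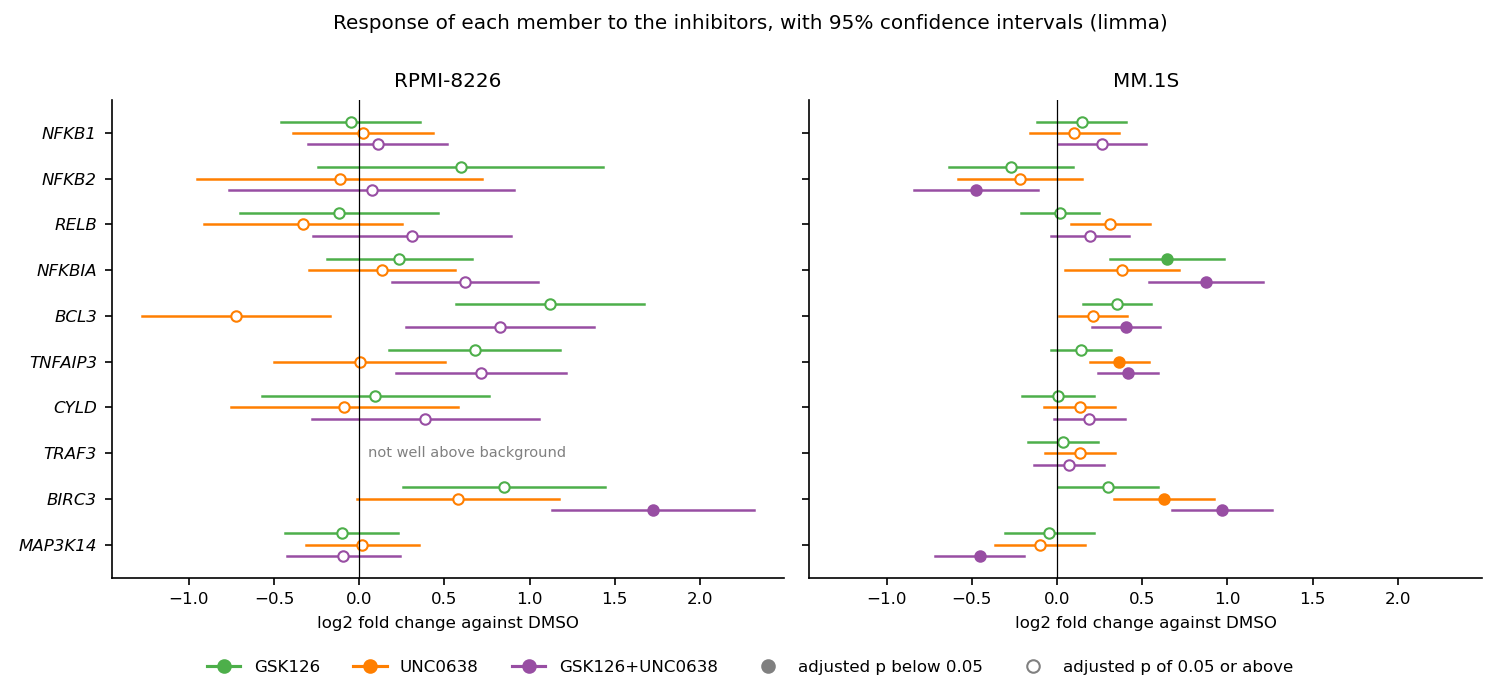
Log2 difference from DMSO of each gene with GSK126, UNC0638 or both, in RPMI-8226 and MM.1S, with the 95% confidence interval of the limma fit. Filled points passed the adjusted threshold. BIRC3 is filled with the combination in both lines (1.72 and 0.97), and MAP3K14 (−0.46) and NFKB2 (−0.47) are filled below 0 in MM.1S.

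BIRC3 was the member whose change passed the test in both lines. Its probe lies at chr11:102208356-102208415 on the plus strand of GRCh37, the build of the array design, and exon and untranslated region annotation of that build was not used here. In RPMI-8226 the levels of BIRC3 were −0.71 and −0.62 with DMSO, 0.23 and 0.15 with GSK126, −0.04 and −0.13 with UNC0638, and 1.44 and 0.68 with the combination. The 4 groups did not overlap, and the combination arrays were the highest. The rise of 1.72 ± 0.25 with the combination was 3.3-fold (adjusted p = 0.00861), and it stayed past the threshold under 11 of 11 alternatives and in 8 of 8 fits that left out an array. The single agents gave 0.85 (95% interval 0.26 to 1.44, adjusted p = 0.284) and 0.58 (−0.01 to 1.17, adjusted p = 0.523).

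In MM.1S, BIRC3 levels were 3.22 and 3.35 with DMSO, 3.72 and 3.44 with GSK126, 3.94 and 3.89 with UNC0638, and 4.19 and 4.32 with the combination. Again no groups overlapped, in the order DMSO, GSK126, UNC0638, combination. The combination raised BIRC3 by 0.97 ± 0.12 (1.96-fold, adjusted p = 0.00129), called under 11 of 11 alternatives and in 8 of 8 fits without an array. UNC0638 alone raised it by 0.63 ± 0.12 (adjusted p = 0.0141), a call lost without DMSO replicate 1 or either UNC0638 replicate, where the adjusted p reached 0.0725. GSK126 alone gave 0.30 ± 0.12 (adjusted p = 0.174).

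NFKBIA, whose product holds NF-κB dimers in the cytoplasm, is read by 10 spots of 1 probe at chr14:35870788-35870847 (minus strand, GRCh37), with a median SD between spots of 0.057. Its MM.1S levels were 2.63 and 2.63 with DMSO, 3.46 and 3.09 with GSK126, 3.07 and 2.96 with UNC0638, and 3.57 and 3.44 with the combination. Each treated array lay above both DMSO arrays. The rise was 0.87 ± 0.14 with the combination (1.83-fold, adjusted p = 0.00297), a call kept under 11 of 11 alternatives and without any 1 array. It was 0.64 ± 0.14 with GSK126 (adjusted p = 0.0471), which was lost in 7 of the 8 fits without an array, all but that without GSK126 replicate 2 (highest adjusted p = 0.163). With UNC0638 it was 0.38 ± 0.14 (adjusted p = 0.0829), and without either GSK126 replicate the adjusted p of this value was 0.0401.

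In RPMI-8226, NFKBIA levels were 2.81 and 2.66 with DMSO, 3.102 and 2.84 with GSK126, 2.86 and 2.87 with UNC0638, and 3.54 and 3.17 with the combination. The combination arrays were the highest and overlapped with no other group. The difference of 0.62 ± 0.18 did not pass the test (adjusted p = 0.0689) and did with the replicate block (adjusted p = 0.0329).

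BCL3, a nuclear IκB family member that binds NF-κB subunits on DNA, went in different directions with the single agents in RPMI-8226. Its probe lies at chr19:45263191-45263250 (plus strand, GRCh37). Levels in RPMI-8226 were 1.93 and 2.39 with DMSO, 3.06 and 3.51 with GSK126, 1.45 and 1.43 with UNC0638, and 3.14 and 2.83 with the combination. Both GSK126 arrays lay above and both UNC0638 arrays below the DMSO arrays. The differences were 1.12 ± 0.23 for GSK126 (adjusted p = 0.139), −0.72 ± 0.23 for UNC0638 (adjusted p = 0.355) and 0.82 ± 0.23 for the combination (adjusted p = 0.0639, and 0.0493 with the block). None of the 3 passed the test without the block.

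In MM.1S, BCL3 levels were 2.96 and 2.93 with DMSO, 3.35 and 3.24 with GSK126, 3.20 and 3.11 with UNC0638, and 3.33 and 3.37 with the combination. All 6 treated arrays were above the DMSO arrays. The combination raised BCL3 by 0.40 ± 0.08 (1.32-fold, adjusted p = 0.00784), and GSK126 and UNC0638 gave 0.35 (adjusted p = 0.0566) and 0.21 (adjusted p = 0.102). In the fit over all 16 arrays the adjusted p of the combination was 0.0967, and with quantile scaling its size was 0.71.

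TNFAIP3 rose slightly in MM.1S. Its probe lies at chr6:138203679-138203738 (plus strand, GRCh37), and its MM.1S levels were 3.36 and 3.33 with DMSO, 3.50 and 3.47 with GSK126, 3.69 and 3.73 with UNC0638, and 3.74 and 3.78 with the combination. The 4 groups did not overlap. The rise was 0.41 ± 0.07 with the combination (1.33-fold, adjusted p = 0.00433) and 0.37 ± 0.07 with UNC0638 (adjusted p = 0.0151). The UNC0638 call was lost without any 1 of the DMSO or UNC0638 arrays, where the adjusted p reached 0.081. In the fit over all 16 arrays the adjusted p of the combination was 0.0585, and with quantile scaling its size was 0.72.

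In RPMI-8226, where TNFAIP3 was dim but well above background at intensities of 35.1 to 70.8, its levels were −3.06 and −3.04 with DMSO, −2.17 and −2.57 with GSK126, −3.22 and −2.88 with UNC0638, and −2.17 and −2.50 with the combination. The GSK126 and combination arrays were above the DMSO arrays, and the UNC0638 arrays lay on either side of them. The differences were 0.68 ± 0.21 (adjusted p = 0.318) with GSK126 and 0.71 ± 0.21 (adjusted p = 0.0721) with the combination. With UNC0638 the difference was 0.00 (95% interval −0.50 to 0.50).

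CYLD, a deubiquitinase that also restrains the pathway, has its probe at chr16:50835733-50835792 (plus strand, GRCh37). It lay between −1.84 and −0.99 in RPMI-8226, where its DMSO arrays marked both ends of the range, and between 0.56 and 0.85 in MM.1S. None of its 6 treatment comparisons with DMSO passed the test. The value nearest to it was 0.19 with the combination in MM.1S (95% interval −0.02 to 0.40, adjusted p = 0.11), and under scaling to probes detected on each array it was 0.37 and passed the test (adjusted p = 0.0139). TRAF3 (chr14:103372362-103372421, plus strand, GRCh37), measured in MM.1S alone, differed from DMSO by 0.04 with GSK126, 0.13 with UNC0638 and 0.07 with the combination, and the 95% intervals held 0 and reached at most 0.34.

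MAP3K14, the kinase of the non-canonical route, fell with the combination in MM.1S. Its probe lies at chr17:43340709-43340768 (minus strand, GRCh37). MM.1S levels were 2.10 and 1.98 with DMSO, 2.02 and 1.97 with GSK126, 2.02 and 1.86 with UNC0638, and 1.68 and 1.49 with the combination. The combination arrays lay below the other 6, which overlapped. MAP3K14 fell by 0.46 ± 0.11 on the log2 scale (1.37-fold, adjusted p = 0.0138). The call was lost without DMSO replicate 1 or combination replicate 2 (highest adjusted p = 0.0728), and under quantile scaling and scaling to probes detected on each array, where the adjusted p reached 0.0874.

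In RPMI-8226, MAP3K14 stayed between 1.74 and 2.004 over the 8 arrays, and its combination difference was −0.09 (95% interval −0.43 to 0.24), or 0.04 under scaling to probes detected on each array.

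Among the subunits, NFKB2 (chr10:104161053-104161229, plus strand, GRCh37, a probe of 60 bases placed over 177 bases) had MM.1S levels of 0.17 and 0.32 with DMSO, −0.02 and −0.04 with GSK126, 0.03 and 0.02 with UNC0638, and −0.01 and −0.45 with the combination. The 2 combination arrays were far apart. NFKB2 fell by 0.47 ± 0.15 with the combination (adjusted p = 0.0375), and this call was lost in 7 of the 8 fits without an array, all but that without combination replicate 1 (highest adjusted p = 0.154). It was also lost under 4 of 11 alternatives, among them the scaling to probes detected on each array, where the adjusted p reached 0.22.

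In RPMI-8226, NFKB2 lay between −2.05 and −0.62, and the highest value was GSK126 replicate 1, with GSK126 replicate 2 at −1.64. No comparison of NFKB2 with DMSO passed the test there. NFKB1 (chr4:103537856-103537915, plus strand, GRCh37, 10 spots) was at 2.57 and 2.68 with DMSO and 2.77 and 2.999 with the combination in MM.1S. The difference of 0.26 ± 0.11 did not pass the test (adjusted p = 0.0805). Without combination replicate 1 it was 0.38 (adjusted p = 0.0407), and with quantile scaling 0.49 (adjusted p = 0.0133). In RPMI-8226 the NFKB1 combination difference was 0.11 (95% interval −0.30 to 0.52).

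RELB (chr19:45541385-45541444, plus strand, GRCh37), the partner of processed NFKB2, was at 5.26 and 5.37 with DMSO, 5.36 and 5.31 with GSK126, 5.69 and 5.57 with UNC0638, and 5.58 and 5.44 with the combination in MM.1S. The UNC0638 and combination arrays lay above the DMSO arrays. The difference with UNC0638 was 0.31 ± 0.09 (adjusted p = 0.052) and with the combination 0.19 ± 0.09 (adjusted p = 0.129). With quantile scaling the RELB differences were 0.63 (adjusted p = 0.00988) and 0.70 (adjusted p = 0.00256), both past the threshold. In RPMI-8226, RELB ranged from 2.70 to 3.56 and its treated groups overlapped with DMSO.

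The combination was next set against each single agent. In MM.1S, 3 of 10 genes differed from GSK126 alone (36.8% of probes called), with BIRC3 higher by 0.67 ± 0.12 (adjusted p = 0.0088), TNFAIP3 higher by 0.27 ± 0.07 (adjusted p = 0.0295) and MAP3K14 lower at −0.41 ± 0.11 (adjusted p = 0.0294). The TNFAIP3 call was lost whichever of the 8 arrays was left out (adjusted p = 0.0505 to 0.116). The MAP3K14 call was lost without either GSK126 replicate or combination replicate 2 (highest adjusted p = 0.124). Without combination replicate 1, NFKB2 was lower at −0.42 (adjusted p = 0.0408). Against UNC0638 alone 0 of 10 genes were called by limma in MM.1S (13% of probes called, a count of 3275 that went to 145 without combination replicate 2 and to 57 in the fit of only the 2 groups), with 3 at an unadjusted p under 0.05. These were NFKBIA at 0.49 (95% interval 0.16 to 0.83, adjusted p = 0.0656), BIRC3 at 0.34 (0.05 to 0.63, adjusted p = 0.112) and MAP3K14 at −0.36 (−0.62 to −0.09, adjusted p = 0.0787), and without either GSK126 replicate the adjusted p of NFKBIA was 0.0498.

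In RPMI-8226, BCL3 was higher with the combination than with UNC0638 by 1.55 ± 0.23 (2.92-fold, adjusted p = 0.0211), the single call among 9 genes (3.38% of probes called). Leaving out either UNC0638 or either combination array ended this call (highest adjusted p = 0.139). BIRC3 differed there by 1.15 ± 0.25 (adjusted p = 0.0663, and 0.0399 with the replicate block), and without combination replicate 2 by 1.53 (adjusted p = 0.018). Against GSK126, 0 of 9 genes were called by limma (2.57% of probes called), with 1 at an unadjusted p under 0.05, BIRC3 at 0.87 (95% interval 0.28 to 1.46, adjusted p = 0.146), which was 1.26 (adjusted p = 0.0332) without combination replicate 2.

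The difference in response between the lines was tested directly over all 16 arrays. No gene of the 9 measured in both lines was called by limma for GSK126 (0.776% of probes called), UNC0638 (2.85%) or the combination (13.1%), with 2, 2 and 1 genes at an unadjusted p under 0.05. The intervals do not show that the lines responded alike. The BCL3 response to UNC0638 differed by −0.93 (RPMI-8226 minus MM.1S, 95% interval −1.50 to −0.36, adjusted p = 0.0843), or −1.16 (adjusted p = 0.0333) without RPMI-8226 DMSO replicate 1, and the BCL3 response to GSK126 by 0.77 (0.20 to 1.34, adjusted p = 0.285). The BIRC3 response to the combination differed by 0.76 (0.11 to 1.40, adjusted p = 0.119), and without RPMI-8226 combination replicate 2 by 1.14 with an adjusted p of 0.00694.

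For each gene the order of the 8 groups was read from its arrays. In BIRC3 no neighbouring groups overlapped, with the 4 MM.1S groups above the 4 RPMI-8226 groups. In BCL3 the first 6 groups overlapped each with the next, from the MM.1S combination down to MM.1S with DMSO, and the RPMI-8226 DMSO and UNC0638 groups stood apart below them. In MAP3K14 the first 7 groups overlapped each with the next, and the MM.1S combination stood apart at the bottom.

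The wider pathway was described by 91 further genes, a list of ligands, receptors, adaptors, kinases, subunits, inhibitors, feedback regulators and known targets chosen with earlier results of these data known. With the combination in RPMI-8226, 16 of 74 measured genes rose and 6 fell, where 7.88% of 16810 genes rose and 5.06% fell. The median difference was 0.21, or 0.20 with genes at background in 1 group set at their bound, against −0.12 over genes. In MM.1S, 31 of 70 rose and 14 fell, where 22.9% of 17918 genes rose and 31.8% fell, and the medians were 0.30 and −0.11. The single agents in MM.1S gave 24 up and 9 down of 70 with UNC0638 (13.5% and 16.6% of genes) and 6 up and 5 down of 69 with GSK126 (5.59% and 2.41%). Leaving out 1 array brought these to 13 to 23 up and 1 to 9 down with UNC0638, and to 1 to 6 up and 0 to 1 down with GSK126. In RPMI-8226 they gave 2 of 69 up with UNC0638, IL2RG and TLR7, and 1 of 72 up with GSK126, EBI3, and 0 down. The replicate block raised these to 5 up, and to 6 up and 1 down. Calls among all 23196 probes grew under the block too. For GSK126 it called 491 probes, where the fit without it called 139. The corresponding counts for UNC0638 were 416 and 148.

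By role, the known targets made up most of the RPMI-8226 response, with 12 up and 4 down of 22 measured. In MM.1S the adaptors gave 9 up and 2 down of 13, the ligands 4 up of 5, the targets 9 up and 3 down of 18, the receptors 3 up and 3 down of 7, the feedback regulators 2 up and 3 down of 9, and the inhibitors 1 up and 1 down of 4. In RPMI-8226 the feedback regulators gave 0 up and 1 down of 9, the receptors 1 up and 1 down of 8, and the inhibitors 0 of 4. Of the 9 genes listed under the kinases and their complexes, 0 passed the test in RPMI-8226. In MM.1S TAB2 and TAB3, which are not kinases themselves, rose. CHUK, a catalytic subunit of IκB kinase, fell there by 0.65 (adjusted p = 0.00133). RELA, the canonical transactivating subunit, differed by 0.17 in RPMI-8226 (adjusted p = 0.483) and −0.06 in MM.1S (adjusted p = 0.504) with the combination.

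**Figure D4:**
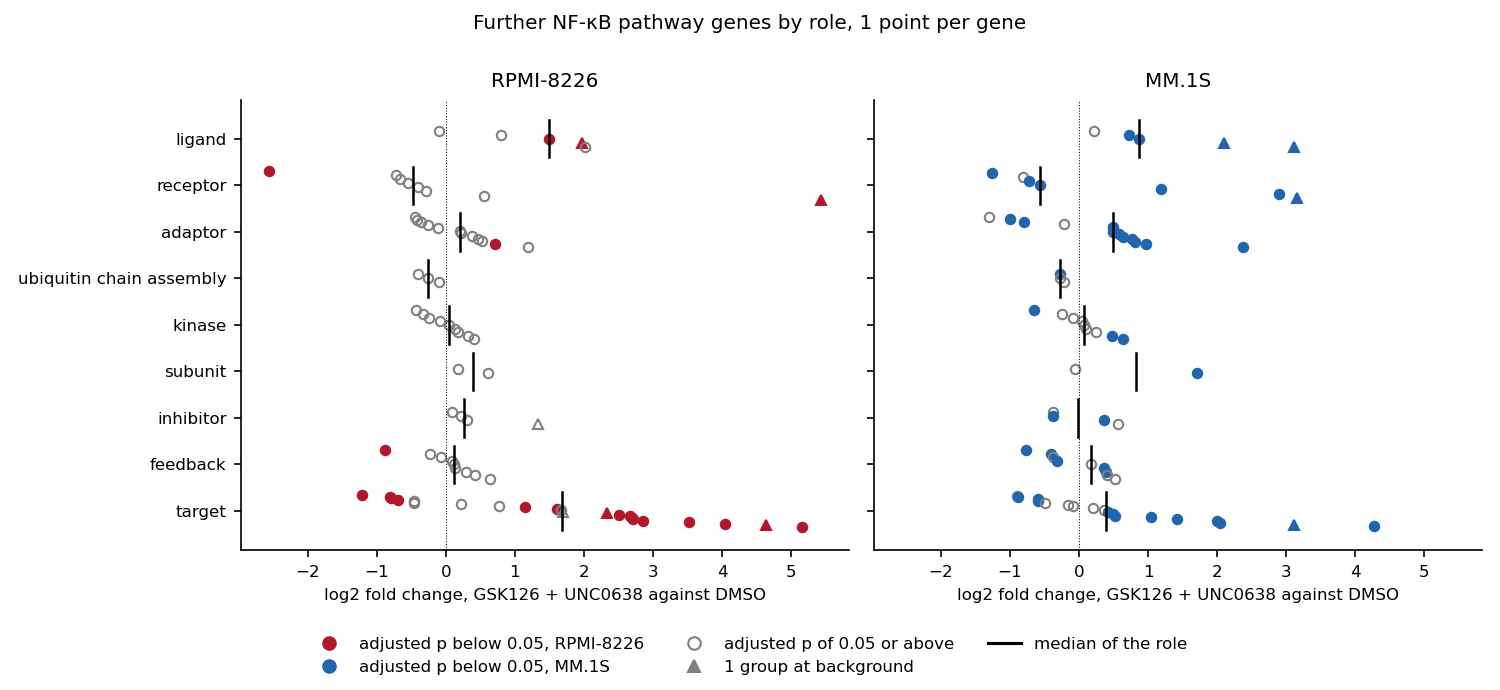
Log2 difference between the combination and DMSO for further pathway genes by role, in RPMI-8226 and MM.1S, with 1 point per gene. Filled points passed the adjusted threshold and triangles mark genes not well above background in 1 of the groups, drawn at their fitted value. In RPMI-8226 the points furthest above 0 are TLR7 and targets such as CCL3 (5.16), and in MM.1S the target CCL2 (4.27).

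In RPMI-8226 the largest rises were in TLR7, an RNA-sensing receptor, and in chemokine genes and IL2RG, a cytokine receptor chain. TLR7 was not well above background on the DMSO arrays and lay at 0.11 and −0.75 with the combination, at least 15.4-fold higher (adjusted p = 0.00142). CCL3 rose from −2.62 and −1.80 to 3.56 and 2.34, a difference of 5.16 (adjusted p = 0.00347). CCL4 was at least 7.84-fold higher (adjusted p = 0.00268). None of these 3 genes overlapped between the groups, and the combination replicates of CCL3 and CCL4 lay more than 1 log2 unit apart. IL2RG rose by 4.04 (adjusted p = 0.000219), and CXCL8, listed on the array as IL8, by 3.53 (adjusted p = 0.00203). The largest falls were in TNFRSF17 (BCMA), the plasma cell survival receptor, at −2.56 (adjusted p = 0.0144), and in GADD45B at −1.21 (adjusted p = 0.0324), OTULIN at −0.88 (adjusted p = 0.0456), ICAM1 at −0.80 (adjusted p = 0.0409) and CFLAR at −0.79 (adjusted p = 0.0263). Leaving out 1 array ended none of the 5 rises. TNFRSF17 was lost without either DMSO replicate or combination replicate 1, GADD45B also without either UNC0638 replicate, and OTULIN, ICAM1 and CFLAR without any 1 array other than those of GSK126, while sizes over the alternatives and left-out arrays ran from −3.16 to −1.97 for TNFRSF17. CFLAR reached −0.25 with the mean over its probes. T cell, B cell and myeloid marker sums were also higher with the combination, as given above. In this order, the sums with GSK126 alone were 0.09 to 0.78, −3.33 to −2.84 and 1.83 to 2.54. With UNC0638 alone they were 1.89 to 2.19, −2.64 to −2.22 and −1.01 to −0.26. Their part in these rises was not tested.

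In MM.1S the largest rises were in the chemokine CCL2, TLR7, the ligand TNFSF14, the cytokine IL6 and the receptor CD40. CCL2 rose from −2.36 and −2.07 to 1.79 and 2.32, by 4.27 (adjusted p = 0.000269). CD40 rose from −3.88 and −3.28 to −0.88 and −0.47, by 2.90 (adjusted p = 0.000799). Neither gene overlapped between the groups. TLR7, TNFSF14 and IL6 were not well above background with DMSO and were at least 7.39-fold, 5.13-fold and 5.19-fold higher (adjusted p = 0.000724, 0.00277 and 0.000617). Among the largest falls were those of TNFRSF13B (TACI), another receptor of plasma cells, at −1.26 (adjusted p = 0.000726), SOD2 at −0.88 (adjusted p = 0.000456), the kinase IRAK1 at −0.79 (adjusted p = 0.000877) and the deubiquitinase OTULIN, listed on the array as FAM105B, at −0.77 (adjusted p = 0.00157).

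In MM.1S, where 69 to 70 of the further genes were measured per treatment, 9 were called the same way with each of the 3 treatments. The share of all genes called in this way was not counted, and the 3 comparisons share their DMSO arrays. REL, an NF-κB subunit of lymphoid cells, rose by 1.33 with GSK126, 0.92 with UNC0638 and 1.72 with the combination (adjusted p = 0.0151, 0.0144 and 0.000732). Its levels were −3.05 and −2.59 with DMSO and between −1.96 and −0.96 on the 6 treated arrays, with no overlap. CCL2, CD83, WNT10A and MMP9 also rose with each, MMP9 by 1.59, 0.87 and 1.997. TNFRSF17, IRAK1, ZC3H12A and SOD2 fell with each, SOD2 at −0.51, −0.37 and −0.88. Of the GSK126 calls of these 9 genes, 0 were kept under each of the 11 alternatives, with MMP9 lost in the fit over all 16 arrays and IRAK1 and TNFRSF17 kept under 5. The call of MMP9 was kept in all 8 fits without an array. That of REL was lost without either GSK126 replicate, those of CCL2, CD83, WNT10A and SOD2 without any 1 of the DMSO or GSK126 arrays, and those of TNFRSF17, IRAK1 and ZC3H12A without any 1 of the 8 arrays. The UNC0638 calls of IRAK1, TNFRSF17, ZC3H12A, SOD2 and REL were also lost in 3 to 6 of the 8 fits.

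For NFKB2, TNFAIP3 and BIRC3, genes among the 3 with the most similar pattern are given, taken by Pearson r over the 16 arrays after the mean of each line was subtracted, among 12829 genes. The arrays share their line, slide and treatments, and r is a description. The pattern of BIRC3 was closest to IL4I1 (r = 0.976), CRYBG3 (0.974) and TFEC (0.966). That of TNFAIP3 was close to APOL2 (0.929) and APOL1 (0.922), and that of NFKB2 to PRLHR (0.920), OR2H1 (0.920) and HOXA9 (0.907). NFKB2 lay at −0.62 on RPMI-8226 GSK126 replicate 1 and between −2.05 and −1.44 on the other RPMI-8226 arrays. The part of this 1 array in r was not tested.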

How the data were processed

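Total RNA of RPMI-8226 and MM.1S cells was hybridised to 1-colour Agilent human arrays with 62976 spots. The deposited intensity values are the processed signals of Feature Extraction 10.7 (10.7.3.1 in the headers), background-subtracted by the authors' scanner software. A deposited table of intensities was tried as an alternative. Of its 939472 values, 99.9956% equalled the processed signal at 3 digits. The methods name Gene Spring GX for the arrays and no test. Here 4259 control spots and outlier spots were left out, and log2 intensity was centred on the 75th percentile of the remaining spots of the array. Spots of a probe were then averaged, which gave 50599 probes. A probe was kept where both arrays of 1 or more groups had it well above background, 23196 in RPMI-8226, 25100 in MM.1S and 26928 in either. Groups were taken from the labels and compared with limma 3.58.1 in R 4.3.3, with 1 fit per line over its 8 arrays and 1 over 16 arrays for differences between the lines, and Benjamini-Hochberg adjustment over the kept probes at 0.05. The number of arrays limits the precision. A gene is read by its brightest probe, and a probe not well above background in 1 group gives a bound. The fit was also run on simulated data with independent arrays, a setting that leaves out the shared deviation of same-numbered arrays given below.

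Same-numbered RPMI-8226 arrays deviated together in 6 of 6 pairs (r = 0.254 to 0.415), so the numbers were taken to pair them, while in MM.1S 5 of 6 pairs passed 0.1 (r = 0.0847 to 0.225) and the numbers were not. The labels state no pairing, and the results come from the fit without a replicate block unless the block is named. Each replicate 1 lay in row 1 and each replicate 2 in row 2 of its slide, so replicate number and row cannot be told apart. Named further genes were, in each line, the 5 largest called rises and falls with the combination and genes called the same way with all 3 treatments, and some items that these rules name are not reported here. The 10 genes, the lists and the tests were chosen with earlier results of these data known. Alternatives changed scaling, background correction, filter, values, block, prior variance, probes and arrays in the fit. Promoter windows came from RefSeq on GRCh38.p14 and probe positions from the array files on GRCh37.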

Additional observations from a re-analysis of the deposited data

Results flagged for a closer look

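Of 23 named further pathway genes, 17 were measured with DMSO and with the combination in both lines. The combination response of 6 of these differed between the lines in the limma fit over 16 arrays (13.1% of probes called). The 6 genes were named for a large or repeated response in at least 1 line, so the test is not independent of their choice. The values are a description. The difference (RPMI-8226 minus MM.1S, log2) was 5.66 for CCL3 (5.16 against −0.50) and 3.51 for IL2RG (4.04 against 0.53). It was −2.00 for TNFRSF17 (−2.56 against −0.56), −1.11 for REL (0.61 against 1.72) and −1.88 for WNT10A (−0.46 against 1.42). ICAM1, an adhesion molecule and NF-κB target, was lower with the combination in RPMI-8226 (−0.80) and higher in MM.1S (1.05), a difference of −1.85. With DMSO, CCL3 and IL2RG lay at −2.62 to −1.69 in RPMI-8226 and at 4.41 to 8.35 in MM.1S.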

How the results depend on the processing

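With 2 arrays per group the calls near the threshold moved with the setting, and 0 of the 22 called values of the 10 genes changed sign in any fit, while 37 of the 110 values not called did in at least 1 fit, 12 of them under an alternative and 33 without an array. The genes called out of the 10, where the count moved by over 1.5 times, were as follows. For the combination in RPMI-8226 (1), quantile scaling, normexp, the replicate block and an intensity-dependent prior variance each gave 3. The fit over all 16 arrays gave 4, and in it GSK126 (0) gave 2 and the combination against GSK126 (0) gave 1. Calls over all probes for the combination (2912) were 2956, 3366, 4906, 4218 and 6678 in these settings. The last fit called 672 probes with GSK126 (139) and 2195 against GSK126 (597). For the combination against UNC0638 in RPMI-8226 (1), normexp, the replicate block and the prior variance gave 2 and the fit over 16 arrays 3. Probes called there (783) were 1041, 1542, 1105 and 2551. In MM.1S with GSK126 (1), quantile scaling, scaling to detected probes, normexp, the stricter filter and the prior variance gave 2. No filter, only the 2 groups and all 16 arrays gave 0. In this order the probes called (1877) were 1511, 1985, 2674, 2290, 3979, 401, 479 and 853. The stricter filter left 21744 probes in MM.1S and no filter 50599, against 25100. With UNC0638 (2), quantile scaling, scaling to detected probes and the replicate block gave 4, and normexp and the prior variance 5. Only the 2 groups gave 1, and no filter and all 16 arrays 0. In this order the probes called (7397) were 6311, 6697, 8631, 7929, 8958, 5349, 3730 and 4413. With the combination (6), all 16 arrays gave 3, with 10666 probes called (13464). Against GSK126 (3), no filter and only the 2 groups gave 1, with 5814 and 6696 probes called (9249). Against UNC0638 (0), quantile scaling, normexp and the replicate block gave 2, the stricter filter 1 and the prior variance 3. In this order the probes called (3275) were 3027, 5118, 4383, 3929 and 5575. For the UNC0638 response between lines (0), normexp and the prior variance gave 1, with 1036 and 1080 probes called (767).

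Leaving out each array gave 0 to 1 genes in MM.1S for GSK126, 0 to 3 for UNC0638, 4 to 7 for the combination, 1 to 3 against GSK126 and 0 to 1 against UNC0638. In RPMI-8226 it gave 0 to 1 for the combination against either agent and 1 to 1 against DMSO, and between lines 0 to 1 for the UNC0638 and combination responses and 8 to 8 with DMSO. The block changed no other call in RPMI-8226. In MM.1S, where the numbers were not taken to pair the arrays, the block added RELB and NFKBIA with UNC0638, NFKB1 with the combination, and NFKBIA and MAP3K14 against UNC0638. Calls over all 25100 probes rose with it from 7397 to 8631, from 13464 to 14473 and from 3275 to 4383, in the same order. For the 91 further genes with the combination, alternatives and left-out arrays gave 7 to 24 rises and 0 to 12 falls in RPMI-8226 and 25 to 37 rises and 10 to 19 falls in MM.1S. In MM.1S the alternatives gave 15 to 28 rises and 1 to 10 falls with UNC0638 and 1 to 11 rises and 0 to 8 falls with GSK126. Over all probes, leaving out 1 array gave 877 to 2497 calls for the combination in RPMI-8226 (2912) and 3262 to 7148 for UNC0638 in MM.1S (7397). The slide as a block was not run, since each line lay on 1 slide. Scaling to detected probes moved the share of called probes that were higher from 56.6% to 74.8% for the combination in RPMI-8226, and in MM.1S from 41.3% to 57.8% for the combination, from 67.6% to 83.2% for GSK126 and from 43.3% to 59.9% for UNC0638.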
